A study of Mus musculus with 6 samples.

Results

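The genes described here encode the calcium-regulated phosphatase calcineurin, its NFAT transcription factor substrates, its Rcan regulators and the Homer scaffold proteins, and they were followed in quadriceps muscle of mice that carry extra ERRγ. The members are all probe sets that the platform annotation assigns to exactly 1 gene where that gene is Ppp3ca, Ppp3cb, Ppp3r1, Rcan1, Rcan2, Nfatc1, Nfatc3, Homer1, Homer2 or Homer3. This gave 31 of 45037 probe sets that are not array controls, for 10 of 18193 genes named by single-gene probe sets. The genes were chosen by their role and with the transgenic against wild-type signal differences on these same arrays already known, so the differences between genotypes and their adjusted p-values are given as a description and are no independent test. The annotation assigns 1 further probe set to Ppp3r1 together with another gene, and it was left out.

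The series holds 6 Affymetrix expression arrays of total RNA from quadriceps, a thigh muscle made mostly of fast fibres in the mouse. The 3 ERRγ transgenic animals carried the receptor under a skeletal actin promoter, which is active in muscle fibres (the series text names it alpha-skeletal actin, and the genotype label writes hSkeletal Actin -ERRg). They were compared with 3 wild-type animals. All were males of strain C57/BL6 aged 8 weeks, and each array is labelled as a separate biological replicate, with no transgenic line or litter given. The values are MAS5 signals, linear brightness units that cannot be compared between probe sets. The probe set that carries the transgene signal, 1421747_at of Esrrg, the gene of ERRγ, gave 14427, 13808 and 12697 in transgenic muscle and 71.6, 61.0 and 24.1 in wild-type muscle. The 5 skeletal muscle markers Acta1, Ckm, Tnnt3, Actn3 and Pvalb did not pass the test, and their summed signal ran from 91277 to 105754 in transgenic and from 87226 to 112837 in wild-type muscle. Of the 6 arrays, 2 stood apart in other genes. Transgenic 3 was high for most slow-fibre genes, and wild-type 3 for adipocyte markers, whose summed signal was 12309 to 16176 in transgenic muscle, against 23498 in wild-type 3 and 13072 and 10835 in the other wild-type arrays.

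Calcineurin joins a catalytic A subunit, encoded by Ppp3ca or Ppp3cb in muscle, with a calcium-binding B subunit, encoded by Ppp3r1. When calcium and calmodulin activate it, it removes phosphates from NFAT proteins, which then enter the nucleus, and in skeletal muscle this pathway is known for its part in the slow-fibre gene programme. Rcan proteins bind calcineurin and can inhibit it, and Rcan1 has an internal promoter that NFAT itself activates. Homer proteins are scaffolds that hold calcium channels and receptors near each other, among them ryanodine and inositol trisphosphate receptors and TRPC channels, and in T cells Homer2 and Homer3 are known to bind NFAT.

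The largest differences lay in single members of the Rcan and Homer families, which moved in opposite directions within each family. Homer2 and Rcan2 were higher in transgenic muscle at every probe set, 3.71 and 5.79-fold at the 2 Homer2 probe sets that were above the test's signal limit in both genotypes and 2.84 and 3.89-fold for Rcan2, as ratios of mean signal. The third Homer2 probe set was below that limit, a mean signal of 37.8, in wild-type muscle. Rcan1 was lower at both probe sets, at 57.4% and 50.4% of the wild-type mean. Homer1 was lower at 4 of 6 probe sets, at 64.1% to 73.4%, and the calcineurin B subunit Ppp3r1 was lower at 1 of 2, at 66.8%. No probe set of Ppp3ca, Ppp3cb, Nfatc1, Nfatc3 or Homer3 passed the test. The test is limma's moderated test on log2(signal + 16), fitted and adjusted over 26995 probe sets, and a probe set passed at an adjusted p under 0.05. The added 16 units understate the differences of dim probe sets. Of 30 member probe sets bright enough to test, 12 passed, against 11.5% of all tested probe sets. Of these, 5 were higher, against 6.38% of all, and 7 were lower, against 5.16%. Transgenic and wild-type signals were fully separated at 20 of the 30, against 31.0% of all tested probe sets, and 8 of those 20 did not pass. At 7 of them transgenic muscle was higher, against 17.8% of all, and at 13 it was lower, against 13.2%. All 5 higher calls passed without transgenic 3 and without wild-type 3, while lower calls numbered 5 without transgenic 3 and 10 without wild-type 3. The median log2 difference over the 30 was -0.21, against 0.05 over all tested probe sets. The choice of genes used this contrast, so nothing is read from these shares.

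**Figure D1:**
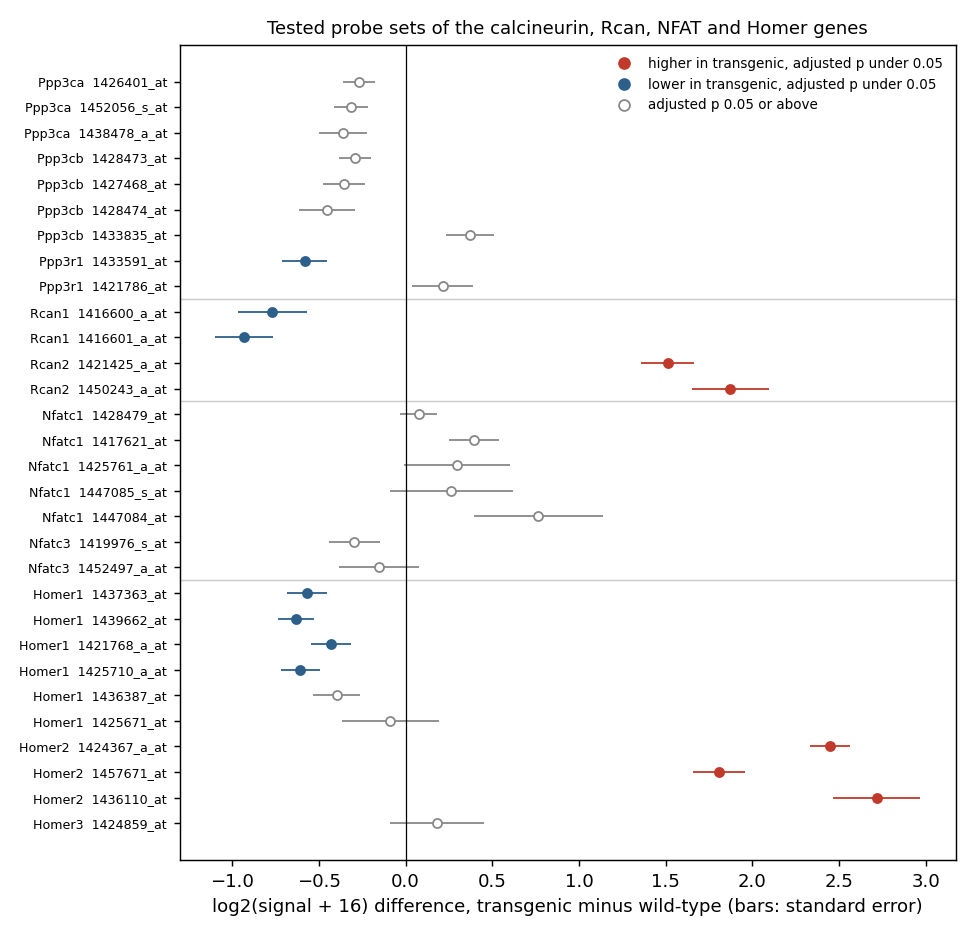
The log2(signal + 16) difference, transgenic minus wild-type, is plotted for each of the 30 tested probe sets, with the standard error as a bar and filled points at an adjusted p under 0.05. The filled points to the right belong to Rcan2 and Homer2, and those to the left to Ppp3r1, Rcan1 and Homer1.

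The promoters of Rcan2, Homer2, Rcan1 and Homer1 are shown because these paralogues differed in opposite directions between the genotypes. RefSeq windows of assembly GRCm38.p6, 250 bases before to 50 after an annotated start, matched 8 of the 10 genes, with 14 windows in all, since several genes have more than 1 start. For each of the 4 genes the window with the most NFAT core letters (GGAAA on either strand) is printed, and for Homer1, where 2 windows tied, the downstream one. They are given 5′ to 3′ on the strand of the gene, with capitals marking GGAAA, or TTTCC where the match lies on the opposite strand. The Rcan1 window lies at chr16:92400029-92400328 on the minus strand, at the downstream of its 2 annotated starts, the Rcan2 window at chr17:43801102-43801401 on the plus strand, the Homer1 window at chr13:93307784-93308083 on the plus strand and the Homer2 window at chr7:81692916-81693215 on the minus strand, at the downstream of 2 starts.
Rcan2: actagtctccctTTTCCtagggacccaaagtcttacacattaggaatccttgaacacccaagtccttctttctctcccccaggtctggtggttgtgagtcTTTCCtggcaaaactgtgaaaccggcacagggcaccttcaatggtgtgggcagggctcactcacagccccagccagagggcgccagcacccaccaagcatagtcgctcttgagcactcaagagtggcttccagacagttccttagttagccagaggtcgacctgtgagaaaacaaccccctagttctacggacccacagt
Homer2: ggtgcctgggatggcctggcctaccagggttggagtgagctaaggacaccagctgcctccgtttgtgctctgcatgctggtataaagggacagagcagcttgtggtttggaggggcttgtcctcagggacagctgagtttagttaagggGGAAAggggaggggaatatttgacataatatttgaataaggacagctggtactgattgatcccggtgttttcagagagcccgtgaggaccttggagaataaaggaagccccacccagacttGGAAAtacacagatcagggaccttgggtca
Rcan1: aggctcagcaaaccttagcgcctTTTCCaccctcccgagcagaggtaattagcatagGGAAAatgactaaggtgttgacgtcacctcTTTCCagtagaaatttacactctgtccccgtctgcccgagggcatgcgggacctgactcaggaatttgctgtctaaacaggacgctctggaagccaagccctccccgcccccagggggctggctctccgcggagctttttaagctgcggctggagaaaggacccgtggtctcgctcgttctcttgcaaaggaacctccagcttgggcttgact
Homer1: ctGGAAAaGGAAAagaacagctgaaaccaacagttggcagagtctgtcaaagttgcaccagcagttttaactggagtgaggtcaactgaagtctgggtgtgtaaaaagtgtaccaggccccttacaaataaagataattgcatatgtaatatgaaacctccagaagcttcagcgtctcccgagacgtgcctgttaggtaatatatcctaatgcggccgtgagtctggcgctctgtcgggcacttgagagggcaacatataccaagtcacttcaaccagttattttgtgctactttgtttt
The Rcan1 window holds 3 such matches and the others 2 each, as windows picked for the most matches. The windows of Rcan1, Rcan2 and Homer2 that are not printed hold none, and the other Homer1 window holds 2. GGAAA was found in 7 of the 14 member windows and in 61.3% of all 32851 windows in the table. The response element that ERR receptors bind was searched on both strands as AAGGTCA and, extended, as TNAAGGTCA, which contains the shorter one. Neither was found in any of the 14 windows, and 4.72% and 1.28% of all windows hold them. The core MEF2 motif, a palindrome, was found in 0 of 14 and in 3.69% of all. These are letter matches within short windows and show no binding.

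Homer2 had the largest difference among the members. Homer2 (GRCm38.p6 chr7:81600481-81706925) encodes a scaffold with a coiled coil through which Homer proteins join into multimers. At its brightest probe set, 1424367_a_at, the signals were 1185, 1298 and 1210.0 in transgenic muscle and 197, 221.5 and 219 in wild-type muscle. All transgenic arrays lay far above all wild-type arrays, and the spread within each genotype was small. The means were 1231 ± 59.5 in transgenic and 213 ± 13.3 in wild-type muscle (SD, n = 3 each), a log2 difference of 2.45 (SE 0.11, limma adjusted p = 1.99e-06). Probe set 1457671_at gave 596.5, 781 and 748 in transgenic and 160.0, 204.5 and 208 in wild-type muscle, a log2 difference of 1.81 (SE 0.15, limma adjusted p = 6.03e-05). The dimmest, 1436110_at, gave 215, 190.0 and 198 in transgenic muscle, against 10.4, 29.9 and 13.5 in wild-type muscle. Its wild-type mean of 17.9 was below the signal limit, so it entered the test only through its transgenic signals and had to differ. No fold is given for it, and its call (limma adjusted p = 0.000112), which is among the 12, adds no support to the other Homer2 probe sets.

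Homer1 (chr13:93303757-93405129), whose long forms are the constitutive scaffold and whose short form lacks the coiled coil, was lower in transgenic muscle. Its brightest probe set, 1437363_at, gave 1888, 2103 and 1755 in transgenic and 3121, 2949.7 and 2484.5 in wild-type muscle, with no overlap. Its log2 difference of -0.57 (SE 0.12) passed (limma adjusted p = 0.0103). Without wild-type 1 the adjusted p was 0.0542. Probe set 1439662_at gave 1032, 1019.8 and 962 in transgenic and 1622, 1649 and 1428 in wild-type muscle. Here the log2 difference was -0.63 (SE 0.10, limma adjusted p = 0.00315), the largest of the gene. Probe set 1425710_a_at, at 394.5, 396 and 383 in transgenic and 647, 568.5 and 599 in wild-type muscle, was close to it at -0.61 (SE 0.11, limma adjusted p = 0.00617). The genotypes were again apart on every array.

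The other Homer1 probe sets were less clear. Probe set 1421768_a_at gave 466, 469.9 and 470.1 in transgenic and 672, 674 and 569 in wild-type muscle, a log2 difference of -0.43 (SE 0.12, limma adjusted p = 0.0378). This call was lost without any 1 of wild-type 1, wild-type 2, transgenic 1, transgenic 2 or transgenic 3, with adjusted p between 0.0804 and 0.146. Probe set 1436387_at did not pass, although its signals of 248, 259 and 321 in transgenic muscle lay below the 387, 354.5 and 358 of wild-type muscle (log2 difference -0.40, SE 0.14, limma adjusted p = 0.0897). The dim probe set 1425671_at overlapped, with 32.8, 49.0 and 44.7 in transgenic and 43.3, 39.4 and 54.4 in wild-type muscle. Which Homer1 transcript each probe set reads is not given in the annotation used here. Homer3 (chr8:70282880-70294361), the third family member, has a single probe set, which gave 94.9, 79.0 and 51.2 in transgenic and 44.7, 83.5 and 64.8 in wild-type muscle. These signals overlapped, with a log2 difference of 0.18 (SE 0.27, limma adjusted p = 0.728).

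**Figure D2:**
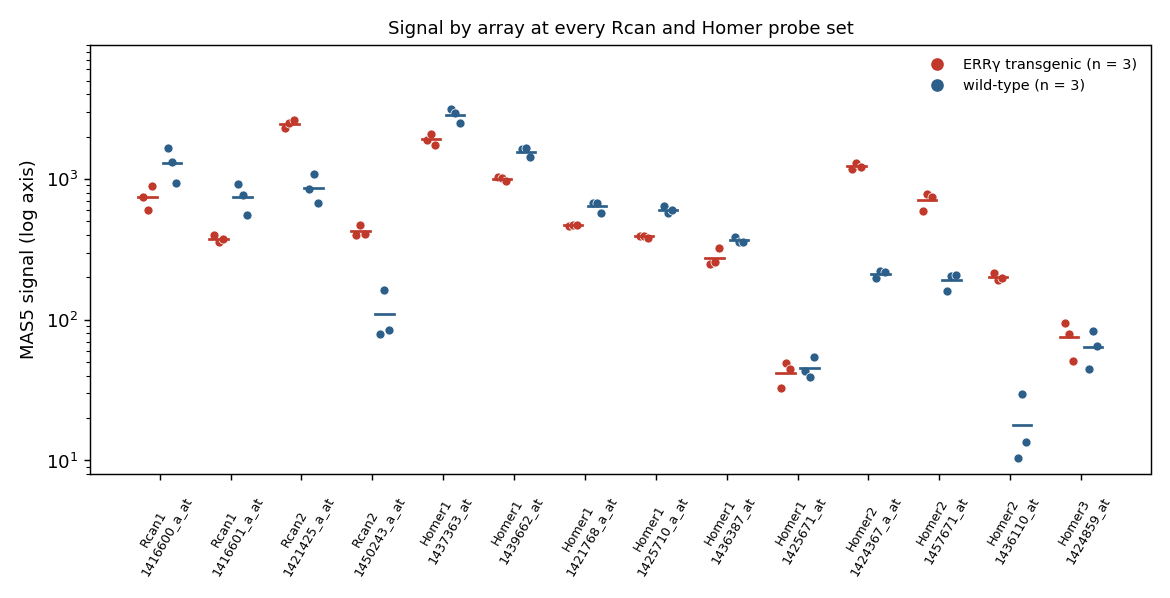
Each point is the MAS5 signal of 1 array on a log axis, with 3 transgenic arrays left of 3 wild-type arrays at every Rcan and Homer probe set and a bar at the mean. Transgenic points lie above wild-type points at both Rcan2 and all 3 Homer2 probe sets, and below them at both Rcan1 probe sets and 5 of 6 Homer1 probe sets.

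Rcan2 was higher and Rcan1 lower in transgenic muscle, each at both of its probe sets. Rcan2 (chr17:43801352-44039516) encodes a calcineurin regulator that responds to thyroid hormone in human cells. Its brighter probe set, 1421425_a_at, gave 2291, 2485 and 2618.5 in transgenic and 849, 1076 and 675.5 in wild-type muscle. The lowest transgenic signal was above the highest wild-type signal by more than the range within either genotype. The means were 2465 ± 165 and 867 ± 201 (SD, n = 3 each, transgenic and wild-type), a log2 difference of 1.51 (SE 0.15, limma adjusted p = 0.000191). The dimmer probe set, 1450243_a_at, gave 399.9, 468.5 and 403.5 in transgenic and 79.8, 163 and 84.4 in wild-type muscle, with a log2 difference of 1.87 (SE 0.22, limma adjusted p = 0.000553). Wild-type 2 was the highest wild-type array at both.

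Rcan1 (chr16:92391951-92466169) encodes the regulator whose internal promoter is a known readout of calcineurin and NFAT activity. Probe set 1416601_a_at gave 402, 356 and 371.5 in transgenic and 916, 766 and 557 in wild-type muscle. The transgenic arrays were tightly grouped, and the wild-type arrays were spread. Its log2 difference of -0.93 (SE 0.17, limma adjusted p = 0.00532) passed under each of the 17 alternative settings. Probe set 1416600_a_at gave 741, 602 and 896 in transgenic and 1653, 1310.4 and 938 in wild-type muscle. Here transgenic 3 and wild-type 3 almost met, and the means were 747 ± 147 and 1301 ± 358 (SD, n = 3 each, transgenic and wild-type). Its log2 difference was -0.77 (SE 0.20, limma adjusted p = 0.0324). Without transgenic 1, transgenic 2, wild-type 1 or wild-type 2 the adjusted p lay between 0.0944 and 0.123. Both names point to 1 accession in the annotation, and whether either reads the transcript of the internal promoter is not given there.

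Among the calcineurin subunits the regulatory B subunit Ppp3r1 (chr11:17159298-17200380) was lower in transgenic muscle at its brighter probe set. Probe set 1433591_at gave 1749, 1623 and 1315 in transgenic and 2464, 2506.5 and 2045 in wild-type muscle, without overlap. The log2 difference was -0.58 (SE 0.13, limma adjusted p = 0.0162). It did not pass without transgenic 3, wild-type 1 or wild-type 2, with adjusted p of 0.0530, 0.0715 and 0.0701. The dimmer probe set, 1421786_at, went the other way without passing, with 154, 141 and 141 in transgenic and 134, 96.7 and 143 in wild-type muscle (log2 difference 0.21, SE 0.18, limma adjusted p = 0.489). The gene's probe sets thus disagree in direction.

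The catalytic subunits differed by less and did not pass. For Ppp3ca (chr3:136669714-136937727), which encodes the α catalytic subunit, the brightest probe set gave 2104, 2331 and 2122 in transgenic and 2718, 2654 and 2534 in wild-type muscle. All 3 of its probe sets had transgenic signals below every wild-type signal, with log2 differences of -0.27, -0.32 and -0.36 and limma adjusted p of 0.0936, 0.0619 and 0.131. At 1438478_a_at the gap was narrow, since the highest transgenic signal was 1234.5 and wild-type 3 gave 1243.5, and without wild-type 3 that probe set passed (adjusted p = 0.00919).

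For Ppp3cb (chr14:20499364-20546573), the β catalytic subunit, the brightest probe set, 1428473_at, gave 5251, 5063 and 4859 in transgenic and 6651, 6219 and 5716 in wild-type muscle, a log2 difference of -0.29 (SE 0.09, limma adjusted p = 0.0724). Probe sets 1427468_at and 1428474_at differed by -0.36 and -0.46 (limma adjusted p = 0.0858 and 0.0993). Without wild-type 3, 1428473_at and 1427468_at passed, with adjusted p of 0.0298 and 0.0240. Probe set 1433835_at was opposite, with 289, 273 and 279.7 in transgenic muscle above the 197, 198 and 247 of wild-type muscle, and did not pass (log2 difference 0.37, SE 0.14, limma adjusted p = 0.117). The fifth, 1446149_at, had no signal above 28.3 on any array and was not tested.

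Whether the catalytic subunits passed depended on how the arrays were scaled. Scaling each array to a common median over all probe sets moved the median of all tested log2 differences by -0.14, and 14 member probe sets were then lower, among them all 3 of Ppp3ca and 3 of 4 tested of Ppp3cb. Their log2 differences of -0.42 to -0.60 stood beside a median of -0.09 for all tested probe sets in that setting. With a common median over the tested probe sets alone, an alternative chosen after seeing the data, 9 member probe sets were lower, with 1 each of Ppp3ca and Ppp3cb. Over all tested probe sets, calls were 1721 higher and 1394 lower as deposited, 977 higher and 2399 lower with the first scaling, and 1355 higher and 1772 lower with the second. The 5 higher and 7 lower calls among the members passed under these 3 scalings. After quantile normalization, the fourth scaling tried, the 5 higher calls passed, Homer1 1421768_a_at lost its call (adjusted p = 0.0505) and Ppp3cb 1428473_at gained one (adjusted p = 0.0127).

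**Figure D3:**
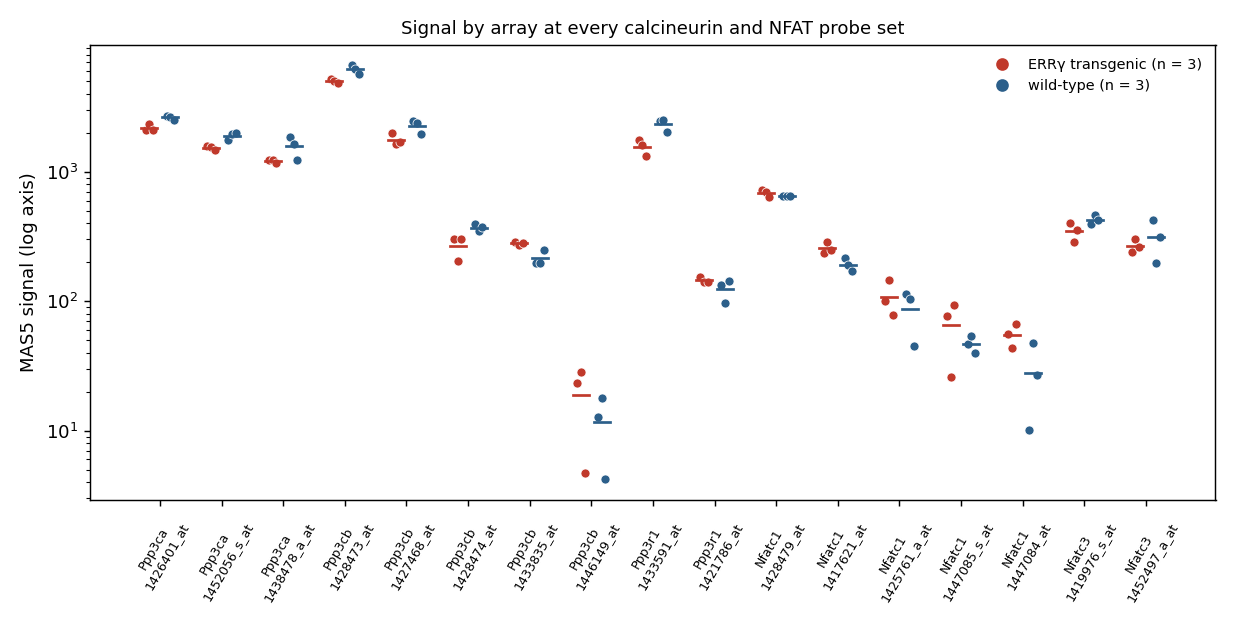
Each point is the MAS5 signal of 1 array on a log axis, with 3 transgenic arrays left of 3 wild-type arrays at every calcineurin and NFAT probe set and a bar at the mean. Transgenic points lie below wild-type points at all 3 Ppp3ca probe sets, at Ppp3cb 1428473_at and 1428474_at and at the brighter Ppp3r1 probe set. They lie above at Ppp3cb 1433835_at, and the genotypes overlap at 6 of the 7 NFAT probe sets.

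The NFAT factors did not pass at any of 7 probe sets. Nfatc1 encodes a factor that, in skeletal muscle, is known as a sensor of nerve activity in slow fibres. Its brightest probe set, 1428479_at, gave 726, 694 and 642 in transgenic and 656, 646 and 650.2 in wild-type muscle, a log2 difference of 0.08 (SE 0.11, limma adjusted p = 0.706) that turned to -0.07 after scaling to a common median over all probe sets. Probe set 1417621_at was the single NFAT probe set without overlap, at 236, 286 and 248 in transgenic and 215, 189 and 171 in wild-type muscle. Its log2 difference of 0.40 (SE 0.15) did not pass (limma adjusted p = 0.112). The other 3 Nfatc1 probe sets had means of at most 108 in each genotype and differences of 0.26 to 0.77 with overlap. The difference of 0.77 was at 1447084_at, whose wild-type mean of 28.1 was below the signal limit. That probe set entered the test through its transgenic signals, so its direction was set by the filter. For Nfatc3 (chr8:106058818-106130537), another calcineurin-dependent factor, 1419976_s_at gave 399, 286 and 358 in transgenic and 394, 464 and 424 in wild-type muscle, and 1452497_a_at gave 242, 302 and 261 in transgenic and 426, 197 and 316 in wild-type muscle. Both overlapped, with log2 differences of -0.30 (SE 0.15, limma adjusted p = 0.234) and -0.15 (SE 0.23, limma adjusted p = 0.724).

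Transcript levels of the whole muscle were measured, so that fewer cells of a type and less RNA per cell cannot be told apart. All 5 endothelial markers (Pecam1, Cdh5, Kdr, Tie1 and Esam) were higher in transgenic muscle, with summed signals of 2653 to 2851 in transgenic and 1305 to 1409 in wild-type muscle. Their part in the differences of Homer2, Rcan2 and Nfatc1 was not tested. None of the 5 leukocyte markers with a probe set, 3 adipocyte, 2 Schwann cell, 4 fibroblast or 3 satellite cell markers passed. Leukocyte sums were 364 to 597 in transgenic and 537 to 638 in wild-type muscle, and the lymphocyte markers Cd3e and Cd79a were below the test's signal limit. Satellite cell sums did not overlap, at 70.4 to 122.5 in transgenic and 136 to 156 in wild-type muscle. They rest on dim signals, since Pax7 and Myf5 had transgenic means of 24.3 and 30.3, below the signal limit. Chrdl2 went the other way with overlap, at means of 50.1 in transgenic and 40.5 in wild-type muscle. Of all tested probe sets, 31.0% were without overlap.

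The slow-fibre genes named as responsive to calcineurin were spread differently over the arrays. Of 9 tested genes, 3 were higher, where 7.65% of all genes were, 0 were lower, where 5.75% of all genes were, and 6 did not pass. The median log2 difference of these genes was 1.45, against 0.03 over 12529 genes. Besides Tnnt1, described below, Myh7, Sln and Tnni1 had wild-type means of 8.23, 30.2 and 37.1, below the signal limit of 37.8. These genes entered the test through their transgenic signals and had to be higher there in mean signal. The list was also chosen with earlier results of these data known, so nothing is read from its counts or median. Myl2, the slow regulatory light chain, gave 303, 396 and 1954 in transgenic and 57.8, 63.6 and 53.1 in wild-type muscle (log2 difference 3.11, SE 0.52, limma adjusted p = 0.00366). Tnnt1, slow troponin T, gave 58.6, 102 and 465 in transgenic and 19.6, 17.6 and 4.5 in wild-type muscle (limma adjusted p = 0.0187). Its wild-type mean of 13.9 was below the signal limit, so it entered the test through its transgenic signals alone, chiefly that of transgenic 3. The Myl2 call was lost with robust variance estimation (adjusted p = 0.0630) and the Tnnt1 call without the intensity trend (adjusted p = 0.0722). Mb, myoglobin, which stores oxygen in the fibre, gave 18627, 20049 and 17484 in transgenic and 5883.5, 8860.0 and 6056 in wild-type muscle (limma adjusted p = 0.000180). Transgenic 3 exceeded the mean of transgenic 1 and 2 by a median of 4.94-fold over these 9 genes, with ratios of 0.904 at Mb to 11.97 at Myh7, slow myosin. Over all 30 tested member probe sets the same ratio had a median of 0.964 and ran from 0.589 to 1.82. At the 5 probe sets of Homer2 and Rcan2 it ran from 0.929 to 1.10, and a small spread within a genotype is part of what lets a probe set pass.

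**Figure D4:**
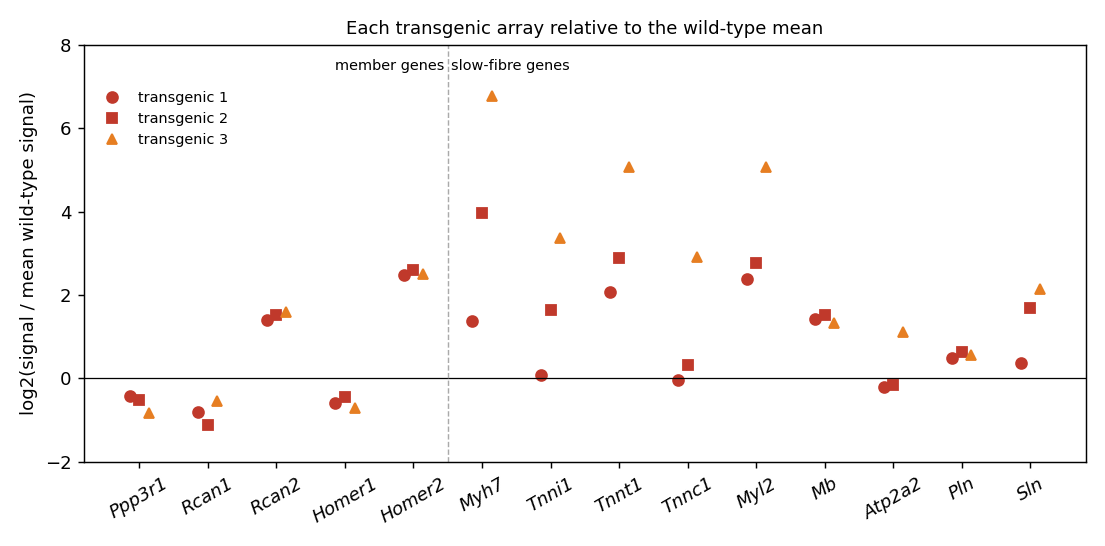
The log2 ratio of each transgenic array's signal to the wild-type mean is plotted for 5 member genes at their brightest probe set and for 9 slow-fibre genes. Transgenic 3, the triangle, stands above the other arrays at Myh7, Tnni1, Tnnt1, Tnnc1, Myl2, Atp2a2 and Sln, but not at Mb or Pln. It lies near them at Homer2 and Rcan2.

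Other genes of the pathway were taken from 8 lists by role, each gene at its brightest single-gene probe set. Of 80 genes, 63 were tested, 9 had no single-gene probe set and 8 were too dim. Of the 63, 10 were higher, 10 were lower and 43 did not pass, where over all 12529 genes 7.65% were higher and 5.75% lower, 13.4% in all. The lists were chosen with earlier results of these data known, so nothing is read from these counts or those of the single lists below. With a variance model that has no intensity trend, 9 of the 63 genes passed, and 8 of the 12 member probe sets. With the most variable probe set standing for each gene, 13 were higher and 7 lower. The remaining calcineurin and Rcan genes, Ppp3cc (191, 209.9 and 240.0 in transgenic and 198, 197 and 176 in wild-type muscle) and Rcan3 (84.0, 69.1 and 72.8 in transgenic and 79.7, 53.4 and 81.0 in wild-type muscle), did not pass. Among 4 further NFAT genes 1 passed. Nfatc2 gave 121, 114 and 99.0 in transgenic and 203, 195 and 212 in wild-type muscle at 1439205_at (log2 difference -0.79, SE 0.15, limma adjusted p = 0.00680), while its other 3 tested probe sets, all dimmer, did not pass and disagreed in direction, with log2 differences of 0.54, -0.03 and -0.88.

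Proteins that bind or anchor calcineurin went both ways. Of 11 tested genes, 3 were higher, 1 was lower and 7 did not pass, and the list's median log2 difference was -0.01. Among all genes 7.65% were higher and 5.75% lower. The calsarcins, Z-disc proteins that bind calcineurin, were divided. Myoz2, the calsarcin of slow fibres and heart, gave 364, 580.4 and 783 in transgenic and 73.8, 245 and 152 in wild-type muscle (log2 difference 1.84, SE 0.36, limma adjusted p = 0.00776). The Myoz2 call was lost without the intensity trend (limma adjusted p = 0.0519). Myoz3, of fast fibres, gave 565, 472 and 552 in transgenic and 1301, 1375 and 835.5 in wild-type muscle (log2 difference -1.09, SE 0.18, limma adjusted p = 0.00291), and its dimmer probe set did not pass. Csrp3, a muscle LIM protein that tethers calcineurin at the Z-disc, gave 841, 1386.5 and 884.5 in transgenic and 69.7, 173 and 122 in wild-type muscle (log2 difference 2.97, SE 0.27, limma adjusted p = 0.000107). Akap1, an anchor at the mitochondrial outer membrane, was higher at both probe sets, with a log2 difference of 0.93 (SE 0.13, limma adjusted p = 0.00148) at the brighter. The calmodulin genes had no single-gene probe set.

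Among kinases of NFAT and of its partners, 2 of 15 tested were higher, 5 were lower and 8 did not pass, and the list's median was -0.25. The shares over all genes were 7.65% higher and 5.75% lower. Camk2d, Camk2b and Mapk9, which encode calcium and calmodulin-dependent kinase subunits and the stress kinase JNK, were lower, by log2 differences of -0.95, -0.61 and -0.64 (limma adjusted p = 0.0162, 0.00836 and 0.0140). Camk2d gave 258, 460.5 and 374 in transgenic and 626.5, 914 and 604 in wild-type muscle, and its adjusted p was above 0.05 without transgenic 1 or wild-type 2. Camk2d passed at 2 of its 5 tested probe sets, and the dim 1439168_at and 1459457_at went the other way (log2 differences 0.07 and 0.19). Mapk9 lost its call without wild-type 1 (adjusted p = 0.0719) and passed at 1 of its 3 probe sets. Csnk1e, a casein kinase, was higher by 0.67 (SE 0.16, limma adjusted p = 0.0251), and this was lost with the common median over all probe sets (adjusted p = 0.0710) and without any 1 array other than transgenic 1. Csnk1e passed at 1 of its 2 tested probe sets. Camk2a did not pass at its brightest probe set (-0.37, limma adjusted p = 0.0921), but 4 of its 5 tested probe sets were lower, at -0.62 to -1.30. In all, 4 pathway genes passed at another probe set and not at the brightest. The other 3 were higher: Gata2 by 1.25 at 1428816_a_at, Itpr2 by 1.03 at 1424834_s_at and Csnk1d by 0.65 at 1437690_x_at (limma adjusted p = 0.00285, 0.0348 and 0.0229). These 4 genes are named after their values were seen.

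Of 14 nuclear partners and class II deacetylases, 1 was higher, 2 were lower and 11 did not pass, and the list's median was -0.07. Among all genes 7.65% were higher and 5.75% lower. Trim63, a muscle ubiquitin ligase that the list also holds, gave 1866, 1658 and 2069 in transgenic and 3258, 3583 and 2876 in wild-type muscle (log2 difference -0.79, SE 0.12, limma adjusted p = 0.00183). Mef2c, which works with NFAT on muscle promoters, was lower by -0.38 on the log2 scale (SE 0.10, limma adjusted p = 0.0346), a call lost without any 1 array other than wild-type 3. Mef2c passed at 2 of its 5 probe sets. Jun, which pairs with NFAT on DNA, was higher by 0.58 (SE 0.13, limma adjusted p = 0.0191), a call lost with the common median over all probe sets (adjusted p = 0.0851) and without transgenic 1, transgenic 3 or wild-type 1.

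Among channels, receptors and scaffolds that bind Homer or feed store-operated calcium entry, 1 of 8 tested was higher, 1 was lower and 6 did not pass, and the list's median was 0.22. The shares over all genes were 7.65% higher and 5.75% lower. Shank3, a scaffold that binds Homer at synapses, gave 458, 405 and 393 in transgenic and 186.5, 228.5 and 153.5 in wild-type muscle (log2 difference 1.09, SE 0.16, limma adjusted p = 0.00150). Orai1, the pore of store-operated calcium entry, gave 429, 564.5 and 471 in transgenic and 769.6, 869 and 713 in wild-type muscle (log2 difference -0.67, SE 0.13, limma adjusted p = 0.00923). Its second probe set, which is dimmer, did not pass. The Orai1 call was lost without the intensity trend (limma adjusted p = 0.0531).

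**Figure D5:**
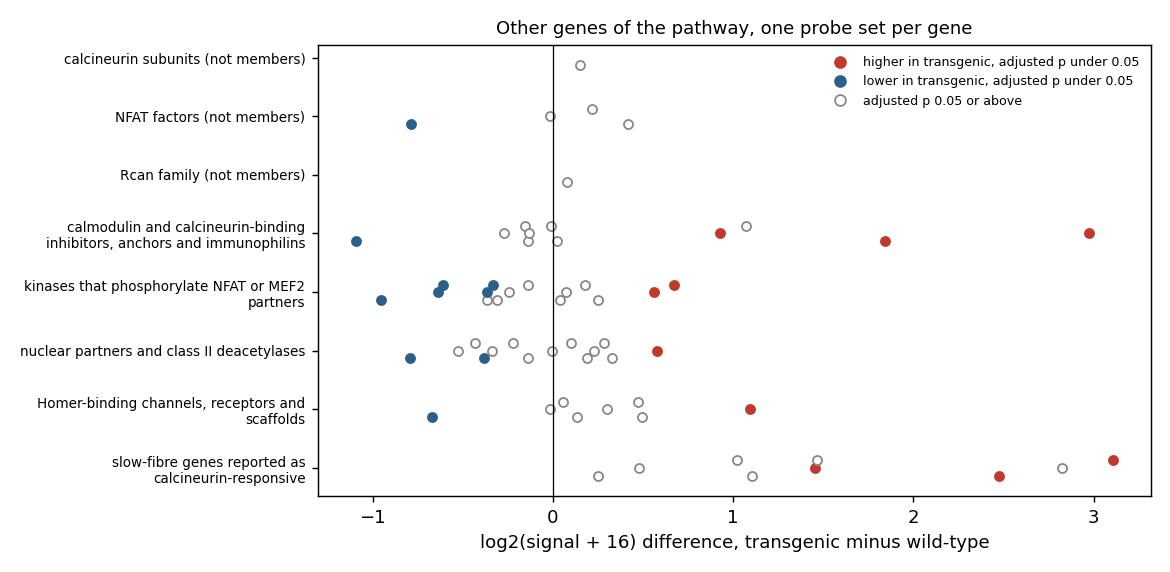
Each point is 1 gene's log2(signal + 16) difference, transgenic minus wild-type, at its brightest probe set, by role list, with filled points at an adjusted p under 0.05. The slow-fibre list lies to the right of 0 throughout, and the lists of binding proteins, kinases, nuclear partners and Homer-binding proteins hold filled points on both sides. In the slow-fibre list Myh7, Tnnt1, Sln and Tnni1 were below the signal limit in wild-type muscle, so their place on the right was set by the filter.

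The genes whose log2 signals were most like a member's over the 6 arrays were looked up among 12519 other genes. The search used the called probe set with the greatest difference in each direction. For Homer2 that was 1436110_at, whose wild-type signals of 10.4, 29.9 and 13.5 were below the signal limit. The brighter Homer2 probe sets were not searched. The genes were Emcn, an endothelial sialomucin, Fabp3, a cytosolic carrier of fatty acids, and Pitpnc1, a phosphatidylinositol transfer protein, each with Pearson r = 0.997. Wild-type 2 was the highest wild-type array at each of them, as at the dim 1436110_at, so nothing is read from them about Homer2. For Rcan1 at 1416601_a_at they were Trim24, a transcriptional cofactor, Polr1b, a subunit of RNA polymerase I, and Norad, a long noncoding RNA, with r = 0.998, 0.998 and 0.997. Trim24 and Norad were lower in transgenic muscle (limma adjusted p = 0.0434 and 0.0116), and Polr1b did not pass (limma adjusted p = 0.204). The 6 points of each pair share the same arrays and the division into 2 genotypes, which alone gives a high r.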

How the data were processed

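The deposited values are MAS5 intensity signals, linear and never negative. MAS5 is named in the submitters' processing notes, with no version or settings in the sources used here, and the authors' scaling gives each of the 6 arrays a mean of 200 when 2% of probe sets are trimmed at each end. Per the labels' protocols, Trizol-extracted RNA was made into biotin-labelled cRNA.

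From 45101 probe sets, 64 AFFX controls were removed. A mean signal above 37.8, the 40th percentile, admitted 26995 probe sets to the test. log2(signal + 16) was fitted with limma 3.58.1 in R 4.3.3 (lmFit, then eBayes with a trend on intensity), with two-sided p-values adjusted by Benjamini and Hochberg's method across those probe sets. The fit was tested on simulated data with known changes. Gene names came from the platform annotation, and coordinates and promoter windows from RefSeq tables of GRCm38.p6, matched by Entrez identifier and symbol. The members and lists were chosen with earlier results of these data known. All members are named, then from each list the passing genes, at most the 4 with the largest difference, or the 1 with the smallest p if none passed, and the 3 genes most alike to 2 members. Same-numbered arrays did not deviate together (r = 0.070, -0.077 and -0.022), so their numbers were not taken as pairs. Alternatives varied the added constant, the signal filter, array scaling, the variance trend, weighting of arrays, a block on replicate number, the probe set standing for a gene, and single arrays left out. Plots used matplotlib 3.10.9 in Python 3.11.15. With 3 arrays per genotype, precision is limited by their number. The p-values rest on the spread between these animals, moderated toward the spread of other probe sets of like intensity.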

Additional observations from a re-analysis of the deposited data

How the results depend on the processing

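Of the 12 member calls, 8 passed under each of the 17 alternatives: both Rcan2, all 3 Homer2 (1436110_at with wild-type signals below the signal limit), 2 Homer1 (1439662_at and 1425710_a_at) and 1 Rcan1 probe set (1416601_a_at). The other 4 (Ppp3r1, Rcan1, 2 of Homer1) were lost under 2 to 8 alternatives, none reversed, and 7 of 18 that did not pass did so under at least 1. The member count was 19 with a common median over all probe sets. With single arrays left out it ran from 8 to 15, and lower calls numbered 3 without wild-type 1 and 4 without wild-type 2, against 7. Without the intensity trend 1584 probe sets and 9 pathway genes changed, against 3115 and 20. The probe set count with 1 array left out ran from 1705 to 3301, and was 1705 when wild-type 1 was dropped, 1916 for transgenic 1, 1875 for wild-type 2 and 2073 for transgenic 2. The pathway count ran from 13 (wild-type 1 dropped) to 19. Fits with 1 array left out also rest on fewer arrays, and the cause of the changes in count was not tested. With the replicate block, 11 member probe sets, 18 pathway genes and 2744 probe sets passed, and the adjusted p of Homer1 1421768_a_at was 0.0645. Reversals were small and touched no call. The Nfatc1 log2 difference at 1428479_at was -0.074 with the common median. With single arrays left out, differences ran from -0.044 to 0.50 at Nfatc1 1425761_a_at, from -0.0059 to 0.68 at Nfatc1 1447085_s_at, from -0.43 to 0.091 at Nfatc3 1452497_a_at, from -0.17 to 0.033 at Homer1 1425671_at (0.011 without wild-type 3), from -0.0087 to 0.38 at Homer3 and from -0.081 to 0.16 at Rcan3. Rcan3 also gave -0.048 with the common median and -0.037 after quantile normalization.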
